A study of Mus musculus with 4 samples.

Results

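The 10 immediate early genes described here are Fos, Fosb, Jun, Junb, Egr1, Atf3, Nr4a1, Ier2, Dusp1 and Zfp36. They were taken by name, through the GENCODE M21 identifiers, from a deposited table of 54393 mouse gene identifiers, and all 10 were among the 18917 genes with enough counts to be tested. The table holds RNA sequencing of cells sorted from mammary glands in 4 libraries, after conditional deletion of ΔNp63 (cKO) and from wild-type (WT) mice. The tested libraries were 1 labelled Dnp63 cKO taken 5 weeks after tamoxifen and 1 taken 10 days after it. The WT libraries were likewise 1 at 5 weeks and 1 at 10 days. Tamoxifen (1.5 mg/ml) is listed for all 4 libraries and was given at puberty, at 4 weeks. The protocol names iK14-Cre (an inducible Cre driven from the keratin 14 promoter, active in basal epithelium) and floxed DNp63 alleles for all libraries alike, and does not say which of these the WT animals carried. Glands were digested with collagenase and hyaluronidase, cells positive for CD45, CD31 or Ter119 were sorted away, and 100000 cells made each library. The sources used here do not give the number of animals behind a library, and the labels' growth protocol speaks of glands of 5 and 35 weeks. Harvest 10 days after the 4-week dose fits the younger age, but harvest 5 weeks after it does not give the older one, so the age at the later time is uncertain and was not used.

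Immediate early genes are transcribed within minutes of a stimulus, without new protein synthesis, when kinase cascades act on transcription factors already bound at their promoters, such as SRF with its ETS partners and CREB. Fos and Jun proteins pair to form AP-1, Egr1 and Nr4a1 encode further transcription factors, and Dusp1 and Zfp36 encode proteins that shut the response down. Their mRNAs are short-lived. In mammary epithelium they answer growth factors, hormones and wounding, and in many tissues they are also known to be switched on while the tissue is dissociated into single cells.

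Total counts were 34230566 in cKO and 79122250 in WT at 5 weeks, and 31714181 in cKO and 33363255 in WT at 10 days. Trp63 was lower in cKO, at 25.5 and 12.8 CPM (counts scaled to library size) against 160.5 and 46.8 CPM in WT at 5 weeks and 10 days, with an adjusted p of 0.107 in edgeR, 0.0871 in limma-voom and 3.82e-09 in DESeq2, so that it passed the 0.05 threshold in DESeq2 alone of the 3. The sort was meant to enrich epithelial cells. The sums over 12 fibroblast markers lay between 39247 and 61548 CPM in cKO and between 32422 and 39893 CPM in WT. The 12 basal epithelial markers summed to between 2351 and 2500 CPM in cKO and between 6165 and 18443 CPM in WT, and the 13 luminal markers to between 8486 and 10780 CPM in cKO and between 8636 and 9339 CPM in WT. Endothelial markers (8) summed to between 174.4 and 276.9 CPM in cKO and between 124.5 and 162.7 CPM in WT, and pericyte markers (8) to between 769.1 and 879.4 CPM in cKO and between 589.4 and 663.1 CPM in WT. No marker of these lists was at 0 in a library. In every library the fibroblast sum was above both the basal and the luminal sum, so the libraries are not of epithelial cells alone. In such bulk libraries a change in the share of a cell type and a change in RNA per cell cannot be told apart.

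The regions upstream of these genes are shown because the members are grouped by how they are switched on. Promoters of 8 members matched RefSeq (GRCm38.p6), all but Egr1 and Ier2. The starts used are those of RefSeq. For Atf3, Nr4a1, Dusp1 and Zfp36 the window before that start lies inside the longer GENCODE span of the gene. In the 250 bases before the start, 6 of the 8 hold the core of the CREB site, TGACG, on either strand, as do 17.8% of all 32851 promoters of that length. The full palindrome TGACGTCA, which contains that core, stands in 1 of the 8 (Dusp1) and in 1.55% of all. A CArG box, the SRF site, stands in 1 of the 8 (Zfp36) and in 1.47% of all. A TATAAA sequence stands in 1 of the 8 (Fos) and in 12.4% of all, the EGR site GCGGGGGCG in 3 and 2.57%, and GGGCGG, which can overlap it, in 7 and 32.7%. The AP-1 site TGANTCA stands in none of the 8 and in 6.75% of all. These are letters found in a window and not sites shown to be bound. Sites outside the 250 bases were not looked for, so a motif missing here, such as the CArG box, may lie elsewhere. The 4 printed here, 5′ to 3′ on the gene's strand, are the most abundant pair of the set, the member with the CArG box and Nr4a1. Nr4a1 was the only member with both cKO libraries below both WT libraries. Capitals mark TGACG or its complement, TATAAA and the CArG box.
Fos (chr12:85473640-85473889, plus strand): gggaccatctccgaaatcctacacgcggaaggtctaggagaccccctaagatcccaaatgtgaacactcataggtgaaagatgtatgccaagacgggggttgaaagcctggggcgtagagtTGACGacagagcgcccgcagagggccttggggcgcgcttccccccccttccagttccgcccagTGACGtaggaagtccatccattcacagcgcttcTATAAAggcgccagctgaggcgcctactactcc
Fosb (chr7:19310046-19310295, minus strand): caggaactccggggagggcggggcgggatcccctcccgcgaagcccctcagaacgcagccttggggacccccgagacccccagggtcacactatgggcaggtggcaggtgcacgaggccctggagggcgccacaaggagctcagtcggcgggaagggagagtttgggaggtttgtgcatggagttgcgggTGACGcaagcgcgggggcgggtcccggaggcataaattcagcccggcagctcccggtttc
Zfp36 (chr7:28379229-28379478, minus strand): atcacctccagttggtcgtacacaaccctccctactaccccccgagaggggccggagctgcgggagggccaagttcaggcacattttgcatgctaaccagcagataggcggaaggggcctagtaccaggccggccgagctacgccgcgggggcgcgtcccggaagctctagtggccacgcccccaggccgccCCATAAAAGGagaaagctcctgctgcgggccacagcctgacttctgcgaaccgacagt
Nr4a1 (chr15:101266596-101266845, plus strand): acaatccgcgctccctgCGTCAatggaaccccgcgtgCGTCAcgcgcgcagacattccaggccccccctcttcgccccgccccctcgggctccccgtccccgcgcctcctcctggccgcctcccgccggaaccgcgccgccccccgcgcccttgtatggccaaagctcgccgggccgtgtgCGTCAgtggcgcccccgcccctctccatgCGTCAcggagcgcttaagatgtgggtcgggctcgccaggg
Fos and Fosb each carry TGACG close to the start, at bases 66 to 62 in Fos and 60 to 56 in Fosb counted back from it, and Nr4a1 holds 4 copies. Zfp36 holds none, and its CArG box lies at bases 58 to 49.

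Most of the transcripts had few exons, which the choice by name did not use. The annotated main transcript had at most 4 exons in 9 of the 10 members, against 22.8% of 14992 tested protein-coding genes, and Jun, Junb and Ier2 have 1 exon, as 2.69% of those genes do. Nr4a1 is the exception, with 8 exons. In the 3′ UTR the pentamer ATTTA stood in 9 of 10 members, all but Ier2, against 68.1% of genes, a share not far from the members', with a median of 3 copies against 1. The longer TTATTTATT, the sequence that the Zfp36 protein binds to speed decay, stood in 3 of 10 members and in 7.84% of genes. It is printed for these 3 in capitals, written as DNA, and 1 of them is the mRNA of Zfp36 itself.
Fos: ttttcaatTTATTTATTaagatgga
Dusp1: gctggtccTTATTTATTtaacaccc
Zfp36: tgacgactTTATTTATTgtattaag
These stretches start at base 655 (Fos), 103 (Dusp1) and 589 (Zfp36) of the 3′ UTR, counted to the first capital.

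All 10 members were abundant in every library. Together they took 3.19% and 4.15% of all counts in cKO, against 2.82% and 2.44% in WT, at 5 weeks and 10 days. Fosb alone ranked between 2 and 5 among all genes by CPM in the 4 libraries, and supplied between 28.2% and 31.96% of the members' counts. Per kilobase of annotated exon, Fos was the highest, with a mean of 2085 RPKM (CPM per kilobase) over the 4 libraries, then Fosb at 1498, Zfp36 at 1189 and Atf3 at 1123 RPKM. The lowest were Dusp1 at 377, Ier2 at 282 and Nr4a1 at 257 RPKM. The order of the first pair turns with the length used, since scaling by the main transcript alone gave Fosb 2473 and Fos 2326 RPKM, and likewise that of Nr4a1 (353) and Ier2 (282). Within a gene the highest library exceeded the lowest by between 1.37-fold (Nr4a1) and 2.13-fold (Zfp36), with a median of 1.70-fold, against 1.68-fold for the 474 genes of at least 300 CPM. The members thus varied between libraries about as much as other abundant genes did.

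**Figure D1:**
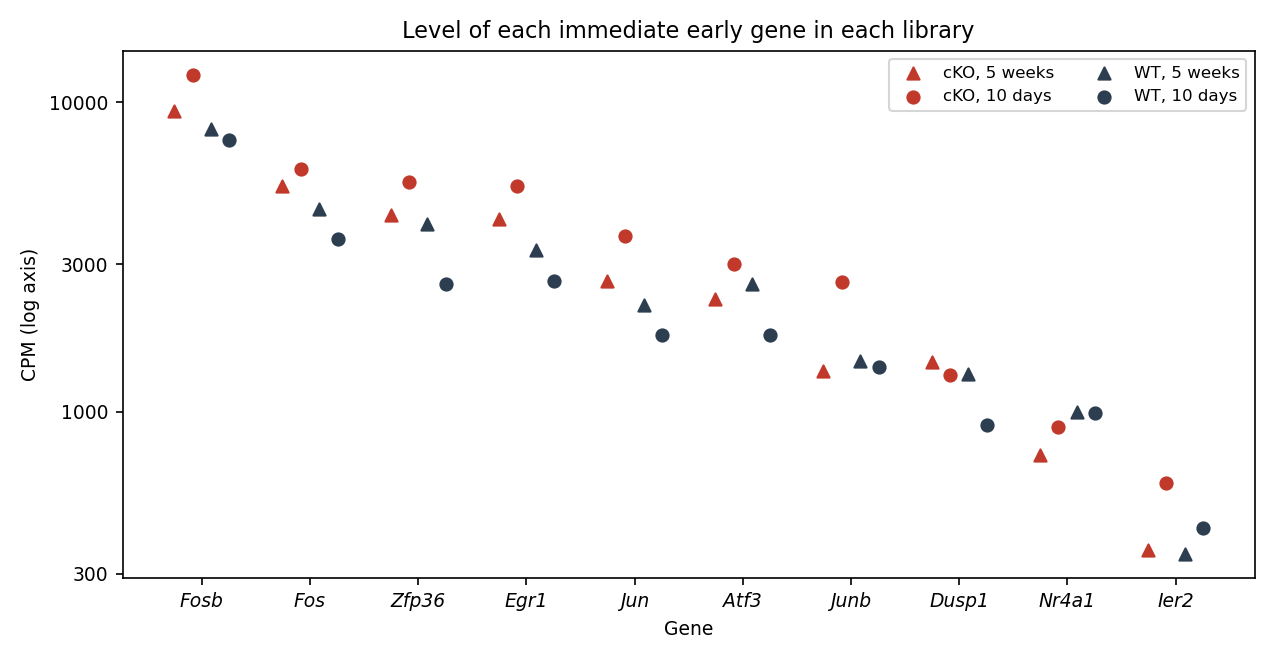
Level of each of the 10 immediate early genes in CPM (log axis), ordered by the cKO mean; each point is 1 library, red for cKO and dark blue for WT, triangles for 5 weeks and circles for 10 days. The cKO library at 10 days is the highest point for 8 genes, and the cKO points lie below the WT points only for Nr4a1.

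Of the Fos and Jun genes among the members, none passed the test for genotype. Fos (chromosome 12, 85473890 to 85477273, GRCm38), which encodes the prototype Fos subunit, stood at 5376 and 6107 CPM in cKO, against 4522 and 3607 CPM in WT, at 5 weeks and 10 days. Both cKO libraries lay above both WT libraries. The log2 fold change of cKO over WT was 0.50 (SE 0.43, n = 2 per genotype), with a 95% interval from -0.56 to 1.57 and an adjusted p of 0.704 in edgeR. Fosb (chromosome 7, 19302696 to 19310051), its close relative, stood at 9381 and 12270 CPM in cKO, against 8198 and 7563 CPM in WT. Its groups did not overlap either, and its log2 fold change was 0.45 (SE 0.48, interval -0.75 to 1.65, adjusted p = 0.776). Jun (chromosome 4, 95049034 to 95052222), the main Jun partner, stood at 2644 and 3697 CPM in cKO, against 2212 and 1767 CPM in WT. These groups were apart too, with a log2 fold change of 0.66 (SE 0.40, interval -0.34 to 1.67, adjusted p = 0.590). Junb (chromosome 8, 84974484 to 84978718), a Jun subunit that can restrain Jun, stood at 1354 and 2631 CPM in cKO, against 1458 and 1396 CPM in WT. Its cKO libraries held both the lowest and the highest value, so the groups overlapped, and the log2 fold change was 0.40 (SE 0.40, adjusted p = 0.754).

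The AP-1 genes summed to 5884 and 8011 RPKM in cKO, against 5318 and 4637 RPKM in WT, at 5 weeks and 10 days. The share of Fosb was close between libraries, while those of Fos, Junb and Jund varied more. Among Fos, Fosb, Fosl1, Fosl2, Jun, Junb and Jund, Fos took 38.9% and 32.4% of the summed RPKM in cKO and 36.1% and 33.1% in WT at 5 weeks and 10 days. Fosb took 25.5% and 24.5% in cKO and 24.7% and 26.1% in WT. Junb took 10% and 14.3% in cKO and 11.9% and 13.1% in WT. Jund took 10.0% and 12.9% in cKO and 10.5% and 12.8% in WT. Fosl1, a late-responding Fos gene also known from basal and squamous epithelium, took 0.41% and 0.58% in cKO, against 2.06% and 1.59% in WT. The level of Fosl1 was 48.9 and 93.8 CPM in cKO, against 222.6 and 149.9 CPM in WT. Its log2 fold change was -1.43 (SE 0.43, unadjusted p = 0.0271, adjusted p = 0.380 in edgeR). In DESeq2 its adjusted p was 0.0113, so that Fosl1 passed there. The sums of basal markers, given above, were lower in the same cKO libraries. Of the 12 markers, 8 had both cKO libraries below both WT libraries, as 23.3% of all genes did. The ratio of cKO over WT was above 0 for 4 of the 12 at 5 weeks and for 0 at 10 days. The part of basal cells in the Fosl1 values was not tested.

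**Figure D2:**
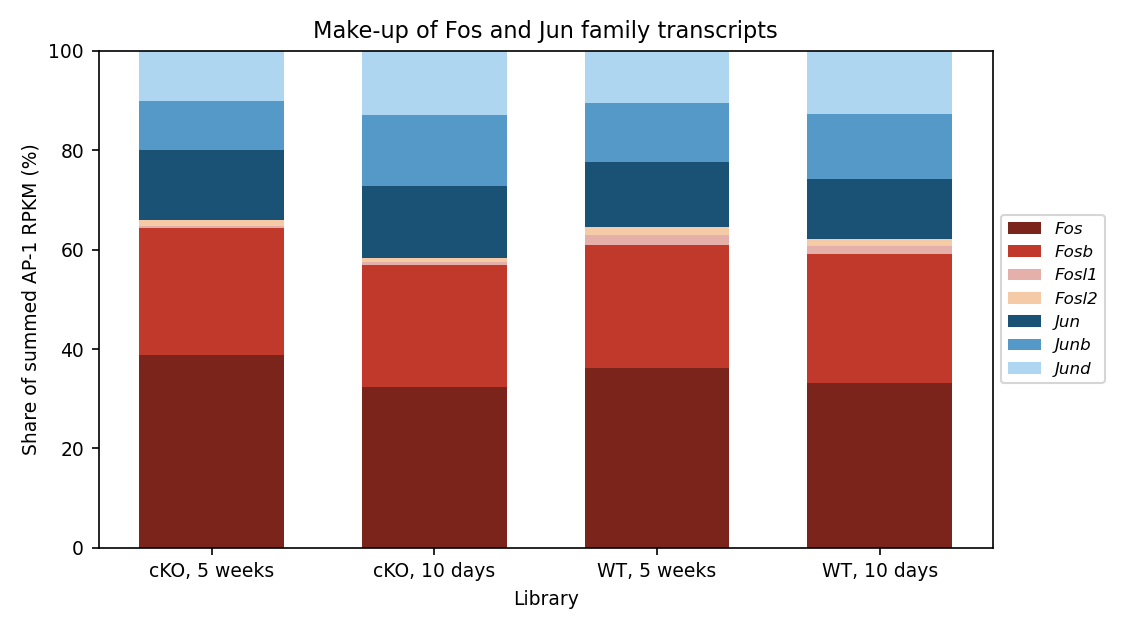
Share of the summed RPKM of 7 Fos and Jun family genes (percent) in each of the 4 libraries; each bar is 1 library and each colour 1 gene. Fos and Fosb form the 2 lowest blocks in every bar, and the Fosl1 block is the thinner in cKO, at 0.41% and 0.58% against 2.06% and 1.59% in WT.

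The other transcription factor genes among the members were split. Egr1 (chromosome 18, 34859823 to 34864984), a zinc finger factor driven by SRF, stood at 4210 and 5365 CPM in cKO, against 3328 and 2656 CPM in WT at 5 weeks and 10 days. Its groups did not overlap, and its log2 fold change of 0.68 (SE 0.42, interval -0.37 to 1.73, adjusted p = 0.598) was the highest of the 10. Atf3 (chromosome 1, 191170296 to 191218039), a stress-induced partner and repressor of AP-1 sites, stood at 2315 and 2997 CPM in cKO, against 2592 and 1767 CPM in WT. The WT values fell on either side of the lower cKO value, and the log2 fold change was 0.30 (SE 0.41, adjusted p = 0.829). Nr4a1 (chromosome 15, 101254269 to 101274795), the orphan nuclear receptor Nur77, stood at 726.7 and 890.8 CPM in cKO, against 996.4 and 991.2 CPM in WT. It was the only member with both cKO libraries below both WT libraries. Its log2 fold change was -0.30 (SE 0.30, interval -1.04 to 0.43), at an adjusted p of 0.748. Per unit of Fos, in CPM, Nr4a1 stood at 0.135 and 0.146 in cKO, against 0.220 and 0.275 in WT. Ier2 (chromosome 8, 84661331 to 84662852), a nuclear protein gene of the early response, stood at 358.0 and 591.5 CPM in cKO, against 348.1 and 421.2 CPM in WT, with overlapping groups and a log2 fold change of 0.27 (SE 0.26, adjusted p = 0.757).

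Both genes that end the response had higher means in cKO, without passing the test. Zfp36 (chromosome 7, 28376784 to 28380253), whose product tristetraprolin destabilises AU-rich mRNAs, stood at 4338 and 5518 CPM in cKO, against 4058 and 2593 CPM in WT. The groups did not overlap, but the WT library at 5 weeks came close to the cKO library of that time. The log2 fold change was 0.59 (SE 0.46, interval -0.54 to 1.73, adjusted p = 0.677). Dusp1 (chromosome 17, 26505590 to 26562128), a phosphatase that switches off MAP kinases, stood at 1448 and 1318 CPM in cKO, against 1324 and 905.1 CPM in WT. The groups overlapped by a few CPM, and the log2 fold change was 0.34 (SE 0.32, adjusted p = 0.744). Annotated genes on the opposite strand share exon bases with Jun (Junos, 232 bases), Junb (Prdx2, 173), Zfp36 (Gm44710, 125) and Dusp1 (Ergic1, 11), so their counts are uncertain to that extent because use of strand is not stated.

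In the genotype comparison 0 of the 10 members passed an adjusted p of 0.05 in edgeR, where 0.0581% of all genes tested did, and 0 had an unadjusted p under 0.05, where 11.6% of all genes did. DESeq2 also called 0, where it called 3.14% of all genes with an adjusted p, and 2 members had an unadjusted p under 0.05 there, as 10.1% of all genes did. Limma-voom called 0 of the members and 0.106% of all genes, and 0 members had an unadjusted p under 0.05, where 12.4% of genes did. The median log2 fold change of the members was 0.43, against -0.01 over all genes tested, and 9 of 10 were positive. Egr1 and Jun were the 2 members with an unadjusted p under 0.05 in DESeq2, where their adjusted p was 0.277 and 0.340. In 5 members both cKO libraries lay above both WT libraries, as in 22.6% of all genes, and in 1 member both lay below, as in 23.3%. Without the cKO library at 10 days, and with no time term, the median was 0.31 and Junb and Ier2 turned to -0.08 and -0.11.

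In single libraries the ratios were larger at 10 days than at 5 weeks. At 5 weeks the log2 ratios of cKO over WT, with 1 library on each side and no test, ran from -0.46 (Nr4a1) to 0.34 (Egr1) with a median of 0.11, and 7 of 10 were above 0, as 49.1% of all genes were. Of the 10, 0 were past 1.5-fold higher, where 17.6% of all genes were. At 10 days they ran from -0.15 (Nr4a1) to 1.09 (Zfp36) with a median of 0.76, and 9 of 10 were above 0, as 50.1% of all genes were. At both times 7 members were above 0, as 29.7% of genes were, and Junb and Atf3 differed in sign between the times, as 39.8% did. At 10 days 7 of 10 were past 1.5-fold higher, where 16% of all genes were. Those were Zfp36, Jun (1.07), Egr1 (1.01), Junb (0.91), Atf3 (0.76), Fos (0.76) and Fosb (0.70). Dusp1 (0.54) and Ier2 (0.49) lay just under that fold. The cKO library at 10 days was the highest of the 4 for 8 of 10 members (20.6% of all genes) and the WT library at 10 days the lowest for 7 (27.7%). Both held for 6 members, Fos, Fosb, Jun, Egr1, Atf3 and Zfp36, and for 8.51% of all genes. The cKO library at 10 days also held the highest sum of 8 adipocyte markers, 812.8 CPM against between 150.7 and 316.0 CPM in the other 3 libraries, with none of the 8 at 0 in any library. The same library held the highest sum of luminal markers, 10780 CPM against between 8486 and 9339 CPM in the others. Of the 13 luminal markers, 8 were above WT at 10 days. The sum of skeletal muscle markers was highest in the cKO library at 10 days too, though low at 9.44 CPM. The fibroblast, endothelial, pericyte and leukocyte sums were highest in cKO at 5 weeks instead, and the basal sum in WT at 5 weeks. The part of these cell types in the members' values was not tested. Whether genotype acts differently at the 2 times could not be tested with 1 library for each.

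**Figure D3:**
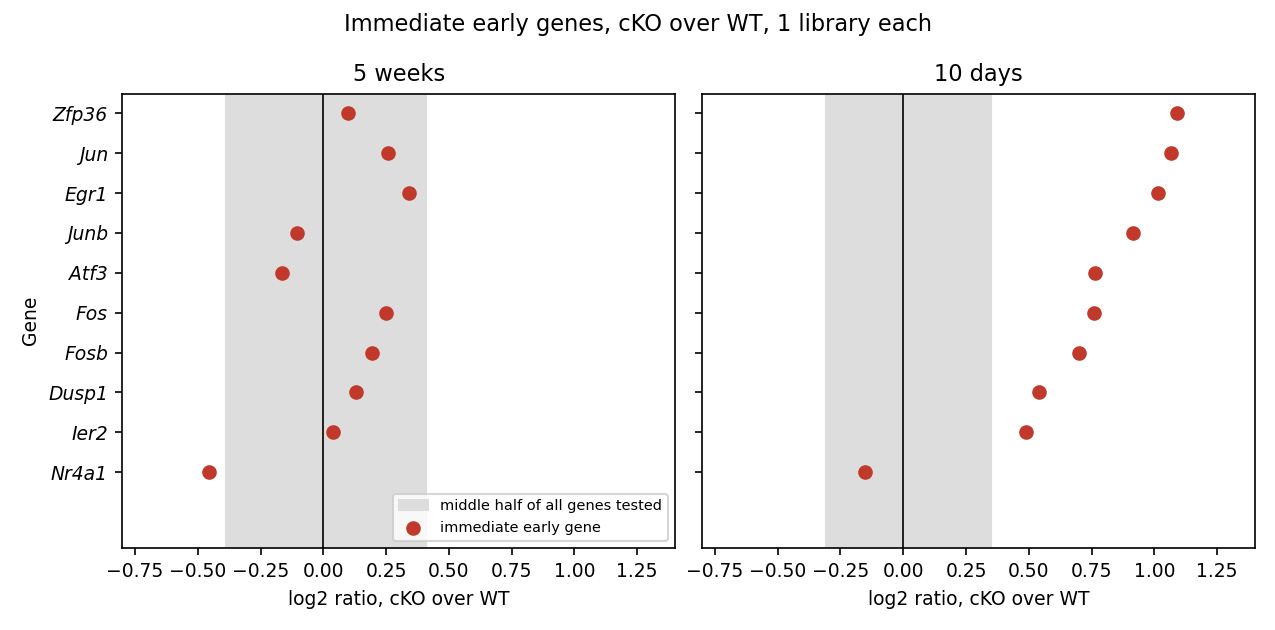
Log2 ratio of cKO over WT for each immediate early gene at 5 weeks (left) and at 10 days (right), 1 library against 1; the grey band spans the quartiles of all genes tested. At 10 days 9 of the 10 points lie right of the band, and at 5 weeks 9 of the 10 lie inside it, with Nr4a1 to its left.

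Between the time points no member passed either. In edgeR 0 of 10 had an adjusted p under 0.05 for 5 weeks over 10 days, where 0.0634% of all genes did, and 0 an unadjusted p under 0.05, where 5.35% did (3.09% higher and 2.27% lower). DESeq2 and limma-voom called 0 as well, where they called 1.04% and 0.196% of all genes. Each had 0 members at an unadjusted p under 0.05, where 4.96% of all genes in DESeq2 and 6.14% in limma-voom had one. The median log2 fold change was -0.05, against 0.03 over all genes. Ier2 was the lowest at -0.50 (SE 0.27, unadjusted p = 0.113, adjusted p = 1) and was the only member with both 5-week libraries below both 10-day libraries, as 13.5% of all genes were. Dusp1 was the highest at 0.34 (SE 0.32, adjusted p = 1) and the only one with both above, as 13.3% of genes were. Within genotypes the medians pointed apart, with -0.36 in cKO and 0.32 in WT. The directions were opposite in 8 members, as in 50.2% of all genes, and in each of the 8 the 5-week library was the lower in cKO and the higher in WT, as in 27.1% of all genes. In cKO Junb (-0.96) and Ier2 (-0.72) were past 1.5-fold lower at 5 weeks, as 9.75% of genes were, and in WT Zfp36 (0.65) was past 1.5-fold higher, as 15.1% were. Those comparisons share the same 4 libraries as the genotype ratios.

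Related genes gave a mixed picture. Among 36 other immediate early genes, 5 were higher and 1 lower in cKO at an unadjusted p under 0.05, where 5.8% of all genes were higher and 5.8% lower, and 0 passed the adjusted threshold in edgeR. DESeq2 called 4 of the 36, with Il6, Cxcl1 and Cxcl2 higher and Arc lower, where it called 3.14% of all genes, and limma-voom called 0. The list's median log2 fold change was 0.27. The inflammatory cytokine gene Il6 stood at 162.7 and 143.8 CPM in cKO, against 56.2 and 57.5 CPM in WT at 5 weeks and 10 days (log2 fold change 1.43, SE 0.20, unadjusted p = 0.000511, adjusted p = 0.137 in edgeR and 9.19e-05 in DESeq2). The neutrophil chemokine genes Cxcl1 (1.43, SE 0.30) and Cxcl2 (1.25, SE 0.27) were likewise higher in both cKO libraries, with adjusted p-values of 0.237 each in edgeR, and of 0.000472 for Cxcl1 and 0.0140 for Cxcl2 in DESeq2. Leukocyte markers, 12 in all with none at 0, summed to between 100.1 and 130.9 CPM in cKO and between 49.3 and 65.8 CPM in WT, and their part in these values was not tested. Arc, a gene of the SRF response best known from neurons, ran the other way, at 113.6 and 138.6 CPM in cKO, against 353.1 and 347.7 CPM in WT. Its log2 fold change was -1.48 (SE 0.23), at an adjusted p of 0.185 in edgeR and 3.04e-05 in DESeq2. The most abundant of the list, Errfi1, a feedback inhibitor of EGF receptors, and Socs3, a feedback inhibitor of cytokine receptors, stood at log2 fold changes of 0.10 (SE 0.34) for Errfi1 and 0.69 (SE 0.45) for Socs3.

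The medians of the members' families were below 0. Of 13 other AP-1 and bZIP genes, 1 (Fosl1) was lower and 0 higher at an unadjusted p under 0.05, with a median of -0.13. Over all genes 5.8% were lower and 5.8% higher at that threshold. Jund, the constitutive Jun gene, had 0.44 (SE 0.34) and Fosl2 -0.24 (SE 0.28). Of 10 other EGR, NR4A and KLF genes, Nr4a2, a relative of Nr4a1, was lower, at 30.0 and 26.8 CPM in cKO against 47.0 and 43.1 CPM in WT (log2 fold change -0.67, SE 0.21, unadjusted p = 0.0195, adjusted p = 0.349). Klf2, a flow-responsive zinc finger gene, was higher (0.70, SE 0.23, unadjusted p = 0.0237, adjusted p = 0.369), and the list's median was -0.10. Klf4 and Klf6, the most abundant, had 0.42 (SE 0.33) and 0.55 (SE 0.33). The median of 10 other dual-specificity phosphatase genes was -0.33. At an unadjusted p under 0.05, 3 were lower and 0 higher, where 5.8% of all genes were lower and 5.8% higher. The 3 were Dusp14 (-1.57, SE 0.25), Dusp7 (-0.85, SE 0.31) and Dusp5 (-0.65, SE 0.20), the last known as a nuclear phosphatase of ERK. Dusp6, the cytoplasmic ERK phosphatase that ERK signalling itself induces, and Dusp16, which acts on JNK, had -0.76 (SE 0.31, unadjusted p = 0.0530) and -0.11 (SE 0.24). DESeq2 called 1 gene of the AP-1 list (Fosl1), 1 of the phosphatase list (Dusp14) and 0 of the EGR, NR4A and KLF list, and limma-voom 0 of each. Over all genes DESeq2 called 3.14% and limma-voom 0.106%.

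Genes upstream of the response and those that share its decay machinery also had medians slightly below 0. They were -0.07 and -0.10, close to the -0.10 of the EGR, NR4A and KLF list. Of 23 upstream regulators and kinases, 0 were higher and 1 lower at an unadjusted p under 0.05. Over all genes 5.8% were higher and 5.8% lower. The 1 was Rps6ka1, which encodes a kinase of the RSK family (-0.79, SE 0.27, adjusted p = 0.388 in edgeR), and the list's median was -0.07. Srf had -0.10 (SE 0.24) and Mapkapk2, a kinase under p38, -0.21 (SE 0.21). Of 11 genes of AU-rich mRNA binding and decay 0 passed in either direction, with a median of -0.10, and the relatives of Zfp36, Zfp36l1 and Zfp36l2, had 0.08 (SE 0.32) and -0.24 (SE 0.32). DESeq2 and limma-voom called 0 of these 2 lists, where they called 3.14% and 0.106% of all genes.

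Heat shock genes, which answer protein damage and also dissociation, were measured beside the members. Of 15, 2 were higher and 0 lower in cKO at an unadjusted p under 0.05. Over all genes 5.8% were higher and 5.8% lower. The 2 were the co-chaperone gene Dnajb4 (0.71, SE 0.20, unadjusted p = 0.0142 in edgeR) and Hsph1 (0.55, SE 0.21, unadjusted p = 0.0422 in edgeR). Of the list 0 passed the adjusted threshold in edgeR, DESeq2 or limma-voom. The most abundant, Hspa8 and Hsp90ab1, had 0.36 (SE 0.34) and -0.46 (SE 0.34). The list's median was 0.21, with medians of the single-library ratios of 0.23 at 5 weeks (8 of 15 above 0) and 0.37 at 10 days (12 of 15 above 0). The inducible Hsp70 genes Hspa1a and Hspa1b, named after their values were seen and near-identical, so that reads may be split between them, had log2 ratios of 0.34 and 0.39 at 5 weeks and of 1.15 and 1.14 at 10 days. Their genotype log2 fold changes were 0.74 (SE 0.33, unadjusted p = 0.0676) for Hspa1a and 0.76 (SE 0.34, unadjusted p = 0.0702) for Hspa1b. These values stand at the upper end of the list, which ran from -0.67 to 0.76 with 9 of 15 above 0. The list summed to 10101 and 10065 CPM in cKO, against 10307 and 7943 CPM in WT at 5 weeks and 10 days, so that, as for the members (32151 and 41386 CPM in cKO, against 29035 and 23665 CPM in WT), the lowest sum was that of WT at 10 days. The highest was that of cKO at 10 days for the members and of WT at 5 weeks for the heat shock list. WT at 10 days also held the lowest sum of the endothelial, pericyte, adipocyte and skeletal muscle markers and of the other immediate early genes. It did not for the basal, luminal, fibroblast or leukocyte markers. Of all genes tested, 27.7% were lowest in that library. The part of dissociation in the members' or the heat shock values was not tested.

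**Figure D4:**
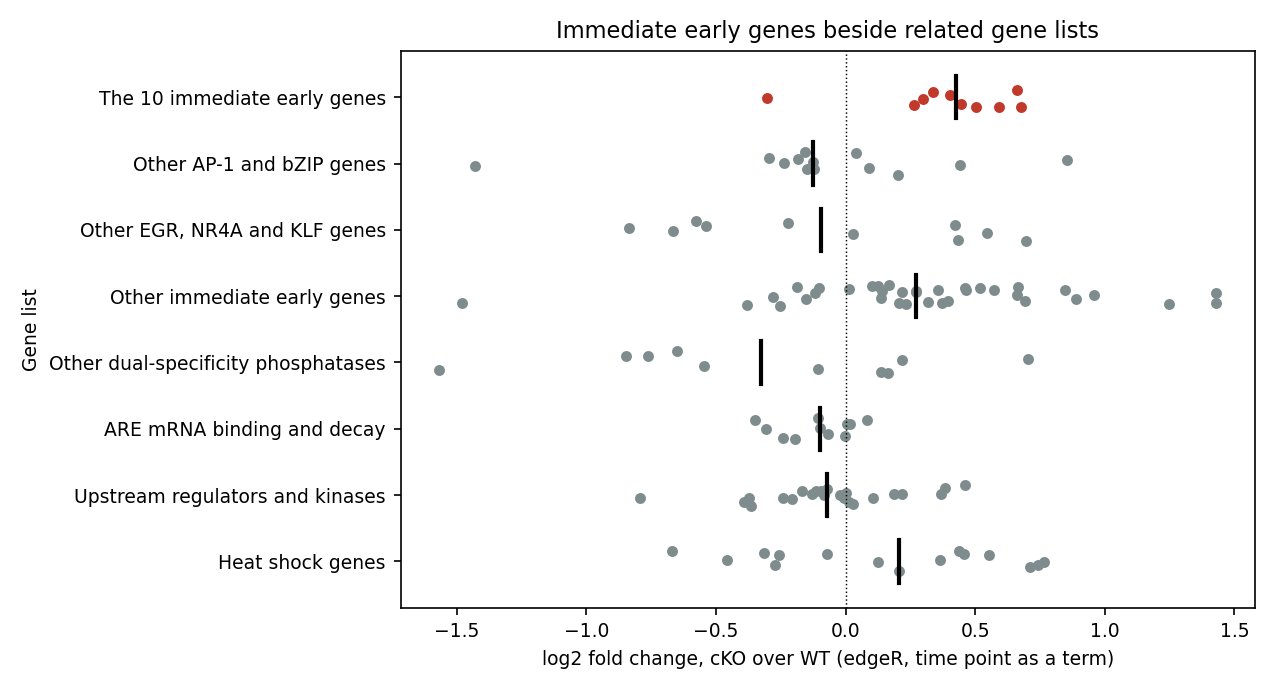
Log2 fold change of cKO over WT (edgeR, time point as a term) for each gene of the 10 immediate early genes (red) and of 7 related lists (grey); points are genes, jittered vertically, and black bars are list medians. The bar of the immediate early genes stands at 0.43 and that of the other immediate early genes at 0.27, and those of the phosphatases and of the AP-1 relatives at -0.33 and -0.13.

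The genes outside the set whose profile over the 4 libraries lay nearest to the mean profile of the members, by Euclidean distance of centred log2 CPM among 9805 genes of at least 10 CPM, were Pgm3, Esyt3, Psmb8, Lgr5 and Ppp1r15a, at distances of 0.0234 to 0.0794. Ppp1r15a, a stress-induced phosphatase subunit gene, stood at 494.4 and 607.7 CPM in cKO, against 462.5 and 372.1 CPM in WT at 5 weeks and 10 days. Of the members themselves Fosb lay closest to that profile, at 0.119 with 15 other genes nearer, and Nr4a1 farthest, at 0.720 with 5812 nearer. With only 4 libraries many genes share such a profile.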

How the data were processed

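The authors deposited estimated counts per gene in 1 table with a column for each library and 0 further columns. The submitters' processing notes name Salmon and GRCm38 without role or version, and the annotation and use of strand are not given in the sources used here. The values were whole numbers, so rounding changed none. All 54393 identifiers matched GENCODE M21, which gave symbols, positions and exon lengths, and listed older symbols were matched through RefSeq synonyms. The libraries of a genotype also differ in time point, and nothing says how animals were divided among them. The p-values therefore measure no spread between animals, only that between these libraries, much of it borrowed from other genes.

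Genes were filtered with filterByExpr (minimum count 10, 18917 genes, 99.9% of counts), scaled by TMM, and tested with edgeR's robust quasi-likelihood test (edgeR 4.0.16 in R 4.3.3). The model held time point and genotype, leaving 1 residual degree of freedom. That 1 is the difference of the genotype effect between the time points, not scatter of replicates. The spread behind each p-value, SE and interval was largely borrowed across genes (median prior degrees of freedom 4.57). Adjusted p-values (Benjamini-Hochberg) cover every tested gene and were read at 0.05. Each SE comes from the QL F statistic, as the absolute fold change (log2) over the root of F. CPM use TMM-scaled library sizes, RPKM divide them by exon-union length, and log2 ratios use a prior count of 2. Time point serves as the block, because both genotypes have a library at each. DESeq2 1.42.0 and limma-voom (limma 3.58.1) were alternatives, with other scalings, no filter, no time term, each library left out, and counts thinned to the smallest library (chosen after seeing the data). The members and lists were chosen with earlier results of these data known, so no list was tested. Named genes are the members and, from each related list, the 2 most abundant genes and up to 4 with the smallest unadjusted genotype p under 0.05, all of which have a value in the text. Outside this rule, Hspa1a and Hspa1b were added after their values were seen, and Trp63 as the deleted gene. For likeness the 5 nearest genes of at least 10 CPM were named.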

Additional observations from a re-analysis of the deposited data

Results flagged for a closer look

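Junb and Atf3 had genotype ratios of opposite sign at the 2 time points, as 39.8% of all genes tested did. The log2 ratio of cKO over WT was -0.11 at 5 weeks and 0.91 at 10 days for Junb, and -0.16 at 5 weeks and 0.76 at 10 days for Atf3.

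The change with time had opposite signs in the 2 genotypes for 8 of 10 members, as it did for 50.2% of all genes tested. The log2 ratio of 5 weeks over 10 days was -0.18 in cKO and 0.33 in WT for Fos, -0.39 and 0.12 for Fosb, and -0.48 and 0.32 for Jun. It was -0.96 in cKO and 0.062 in WT for Junb, -0.35 and 0.33 for Egr1, and -0.37 and 0.55 for Atf3. It was -0.29 in cKO and 0.0076 in WT for Nr4a1, and -0.35 and 0.65 for Zfp36. None of these differences was tested, because each rests on 1 library for each genotype and time, and the genotype and time ratios are built from the same 4 libraries.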

How the results depend on the processing

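The count of genes called for genotype (11 in edgeR) was 513 in DESeq2, 20 in limma-voom, 1235 with no filter on low counts, 5 with DESeq2 size factors, 3 with upper-quartile factors, 30 with thinned counts, and 0 with no time term (no replicate block), where 2182 had an unadjusted p under 0.05. It was 60 without WT at 10 days, 1 without WT at 5 weeks and 0 without either cKO library. The count for time (12) was 192 in DESeq2, 37 in limma-voom, 638 with no filter and 21 with thinned counts, and was 18 without WT at 10 days, 13 without cKO at 10 days and 0 without either 5-week library. No member passed an adjusted p of 0.05 in any of these fits. The members' median for genotype (0.43) ran from 0.41 to 0.47 across the other settings and from 0.31 to 0.61 with a library left out. That for time (-0.05) ran from -0.07 to -0.03 and from -0.44 to 0.42.

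With no filter the time value of Egr1 was 0.0018, against -0.01 with it. With a library left out, direction turned for the genotype value of Junb (-0.081 to 0.86), Ier2 (-0.11 to 0.60), Dusp16 (-0.44 to 0.23), Srf (-0.41 to 0.20), Zfp36l1 (-0.083 to 0.26) and Zfp36l2 (-0.59 to 0.10), and for the time value of Fos (-0.30 to 0.42), Fosb (-0.48 to 0.18), Jun (-0.61 to 0.43), Egr1 (-0.51 to 0.47), Atf3 (-0.29 to 0.44), Nr4a1 (-0.37 to 0.060) and Zfp36 (-0.39 to 0.66). The cause was not tested. Those fits drop the other term and assume that a lone library varies like the others. The depth of each library, at least 31714181 counts, put at least 12155 counts on every member.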
